A study of Homo sapiens with 6 samples.

Results

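The SOX genes encode transcription factors that bind DNA through a shared domain, the HMG box. Here 9 members of the family were followed in UMUC3 bladder tumours: SOX4, SOX11 and SOX12 (group SOXC), SOX8 and SOX9 (group SOXE), SOX5, SOX6 and SOX13 (group SOXD) and SOX2 (group SOXB1). They were taken by symbol from the deposited tables, and SOX4 was selected on its measured values in this same comparison (close to constant within each group and higher in the knockdown), so its values are described with no test. All 9 members were in the TPM table of 60233 genes, 7 were in the count table of 21503 genes, and 6 of 9 passed the filter on low counts and entered the fit over 19430 genes. Of these 6, the 5 other than SOX4 were tested. SOX2 and SOX11 had TPM values only, and SOX5 had counts too low to test.

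UMUC3 is an established human bladder carcinoma cell line. Cells were placed in the bladders of C57 nude mice, which lack mature T cells but keep other leukocytes, and left for 14 days. The 3 control libraries came from control UMUC3 cells and the 3 knockdown libraries from UMUC3 cells with knockdown of GANAB, the gene of the catalytic subunit of glucosidase II, which trims glucose from new N-glycans in the endoplasmic reticulum. The sources used here give neither the agent used for the knockdown nor the number of clones or mice behind each group, so p-values measure only the spread between these libraries, which may be technical.

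SOX proteins bend DNA at short AT-rich sites and act together with partner factors on the same enhancers. SOXC factors act in neural and mesenchymal progenitors. SOX4 is induced by TGF-beta, has been tied to epithelial-mesenchymal transition, and lies in a region gained in some bladder cancers. SOX9 directs cartilage formation together with SOX5 and SOX6 and is active in developing and injured urothelium, while SOX2 maintains pluripotent and neural stem cells.

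The members carry nearly the same coding sequence at the heart of the HMG box, which is shown here because reads from such a stretch could be placed on more than one gene. The 27 bases below are from GENCODE release 29 transcripts (GRCh38), written 5′ to 3′, with capitals at the 6 positions where the 9 genes differ and lower case at the 21 where they do not.
SOX4: CgAccCatgaaCgcCttcatggtGtgg
SOX11: CgGccGatgaaCgcGttcatggtAtgg
SOX12: AgGccGatgaaCgcAttcatggtGtgg
SOX8: CgGccCatgaaCgcAttcatggtGtgg
SOX9: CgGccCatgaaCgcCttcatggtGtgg
SOX5: CgTccAatgaaTgcCttcatggtGtgg
SOX6: CgAccAatgaaTgcAttcatggtTtgg
SOX13: AgGccCatgaaCgcCttcatggtGtgg
SOX2: CgGccCatgaaTgcCttcatggtGtgg

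Over 237 bases of the HMG box around this core, SOX8 and SOX9 were identical at 89.9% of positions, SOX4 and SOX11 at 86.9% and SOX4 and SOX12 at 84.0%, whereas SOX4 and SOX6 were identical at 57.8%. Identity over runs of 31 bases was rare all the same. The read length is not given by the sources used here, so identity at that length was not measured. Of 36 pairs of members, 3 shared any run of 31 bases in their annotated transcripts. SOX8 and SOX9 shared 10 such runs, SOX11 and SOX12 shared 5, and SOX4 and SOX12 shared 3 of the 5822 that SOX4 holds. Runs were counted from every start position, so neighbouring runs overlap and the counts are not numbers of separate stretches. Most of each transcript therefore had no match of that length in another member.

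The libraries differed in depth and in spread. Control libraries held 11737837 to 36381218 estimated counts and knockdown libraries 36619291 to 40039584. The mitochondrial ribosomal RNA gene MT-RNR2 took 17.5% of control library 1, which lowers the TPM of other genes there, and the coefficient of variation estimated by edgeR was 52.3% in the control and 10.7% in the knockdown group. GANAB, read over the whole gene, stood at 661 to 825 CPM in control and 231 to 238 CPM in knockdown libraries. Of the urothelial list, KRT8 and KRT18, keratins of simple epithelium, had mean control levels of 123 and 169 TPM. The umbrella cell markers UPK3A and KRT20 were listed at 0 in all 6 libraries. The other uroplakin genes of the list, UPK1A, UPK1B, UPK2 and UPK3B, were not absent. In control libraries they reached at most 0.897, 1.62, 1.21 and 0.842 TPM in that order. In knockdown libraries they reached 6.45, 4.67, 5.70 and 1.70 TPM. CPM here means counts scaled to library size with TMM factors, and TPM is the deposited value that also corrects for transcript length, so levels of different genes are compared in TPM only.

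Ordered by TPM, SOX12 was the most abundant member in every library. SOX9 came next except in control library 2, where SOX13 was higher, and in all 3 controls SOX13 stood above SOX4. In the knockdown SOX4 stood above SOX13, and SOX12 and SOX9 lay close together, with SOX12 at 45.3 ± 0.644 and SOX9 at 42.2 ± 1.23 TPM (SD, n = 3). SOX9 control levels of 7.36 to 19.8 TPM overlapped those of SOX13, 4.70 to 10.3 TPM, so these neighbours in the control order were not separated beyond their spread. SOX8 followed at 2.10 ± 0.521 TPM in the knockdown, and SOX5, SOX6, SOX2 and SOX11 were under 1 TPM in all 6 libraries. The summed TPM of the 9 members was 40.5, 65.4 and 76.5 in control libraries 1, 2 and 3 and 122 to 124 in the knockdown libraries. This sum includes SOX4, which was chosen for its rise, and is given as description only.

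**Figure D1:**
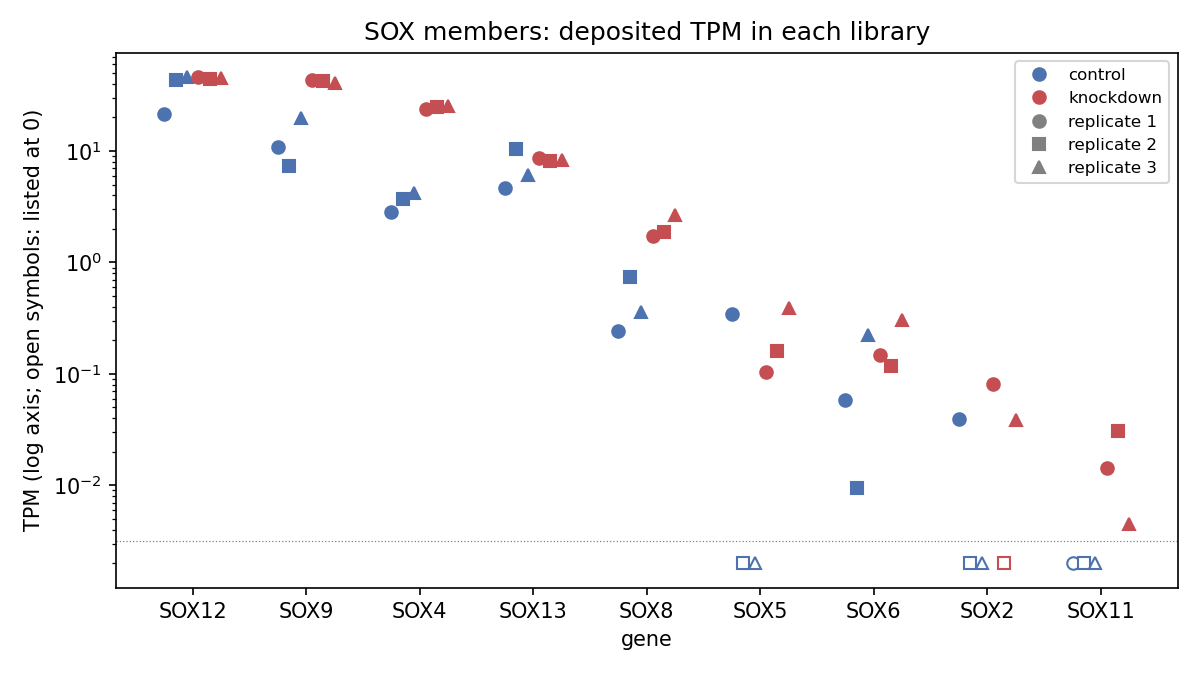
Deposited TPM (log axis) of the 9 SOX members in each library, with control in blue, knockdown in red, replicates 1 to 3 as circle, square and triangle, and open symbols for values listed at 0. SOX4, SOX9 and SOX8 stood higher in all 3 knockdown libraries than in any control library, and SOX12 and SOX13 overlapped between groups.

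SOX4, SOX8 and SOX9 were higher in the knockdown libraries, SOX12, the most abundant member, and SOX13 had overlapping values in the 2 groups, and no tested member passed in the lower direction. Besides SOX4, which was not tested, 2 of 5 tested members rose at an edgeR adjusted p under 0.05, SOX8 and SOX9. Of all 19430 genes tested 4.59% rose and 3.72% fell at that threshold. In either direction 8.31% passed by edgeR, 18.8% by DESeq2, 12.1% by limma-voom and 19.1% by limma-voom with quality weights. Counts by these tools in the lists below are to be read beside those shares. The share of all genes at an unadjusted p under 0.05 is not given here. Values of the 2 groups did not overlap for 2 of the 5 tested members, SOX8 and SOX9, and were higher in the knockdown both times; 21.9% of all tested genes had such a gap in that direction and 37.6% in either. The median log2 fold change of the 6 fitted members was 0.83, against 0.03 for all tested genes, but since SOX4 was chosen for its rise this median supports nothing. In bulk tumour RNA, a change in the number of cells that express a gene cannot be told apart from a change in the RNA per cell.

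Among SOXC genes, SOX4 (ENSG00000124766, chromosome 6, 21592768 to 21598619, plus strand, GRCh38) is a gene with 1 exon. It held 434, 266 and 186 counts in control libraries 1, 2 and 3 and 3530, 3451 and 3965 in knockdown libraries 1, 2 and 3. After scaling these were 15.97, 13.98 and 15.3 CPM in control and 87.6, 87.9 and 93.4 CPM in knockdown libraries. All 3 knockdown values thus lay far above all 3 control values, with little spread in either group. The fold was 5.94 in the edgeR fit (log2 fold change 2.57, SE 0.133), and the TPM was 3.58 ± 0.696 in control and 24.7 ± 0.745 in knockdown libraries (SD, n = 3).

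The coefficient of variation of SOX4 was 6.69% among controls, where the median of 10051 tested genes with a mean of at least 10 CPM was 22.6%, and 3.66% in the knockdown against a median of 4.75%. By log2 fold change SOX4 ranked 34 of 9607 protein-coding genes of that level, SOX9 ranked 135, SOX12 2963 and SOX13 3249. Since SOX4 was selected for a tight rise, its low spread and high rank restate that choice and support nothing. An antisense transcript that overlaps SOX4 on the minus strand, AL512380.2, was listed at 0 TPM in all controls and at most 0.167 TPM in the knockdown, far below SOX4 itself.

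The 5 protein-coding genes whose profile over the 6 libraries was closest to that of SOX4 were HAS2, PLAAT4, PCDH7, GLI1 and KLF4. Closeness was the root mean square difference in centred log2(CPM + 0.5), which was 0.133 to 0.145 for these 5 and 0.591 for SOX9 (rank 110 of 9606). HAS2 makes hyaluronan, PLAAT4 is a phospholipase family gene, PCDH7 encodes a protocadherin, GLI1 is a transcription factor of Hedgehog signalling and KLF4 is a zinc finger factor used with SOX2 in reprogramming. HAS2, at 4.20 to 5.48 CPM in control and 31.4 to 33.4 CPM in knockdown libraries, had the smallest difference. With 2 groups of tight values, such likeness mostly restates the size of the step between groups, so these genes carry no test here.

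The stretch before the SOX4 start is shown because CCAAT boxes, the sites of the factor NF-Y, recur there. In the 250 bases before the RefSeq start (GRCh38.p14, chromosome 6, 21593501 to 21593750, plus strand), the motif CCAAT was found 4 times counting both strands. These bases lie inside the longer exon of SOX4 in GENCODE release 29. Capitals mark the box, written ATTGG where it lies on the minus strand.
SOX4 box 181 bases before the start, chr6:21593558-21593586: tttgctctgtaaATTGGaatgaggtcaga
SOX4 box 114 bases before, chr6:21593625-21593653: tcgggttccaagCCAATgggaagcccggg
SOX4 box 57 bases before, chr6:21593682-21593710: ttacagcagctgATTGGctgcagccaaga
SOX4 box 10 bases before, chr6:21593729-21593750: gcgcgaggcggaATTGGggtct

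At least 1 such match was found in 32.0% of 35116 RefSeq windows of that length, and at least 4 in 0.87%. Windows were found for 6 of the 9 members, and SOX12 and SOX2 held 1 match each while SOX13, SOX5 and SOX6 held none. The motif was chosen after the SOX4 sequence was seen, and a match of 5 letters is no evidence of binding.

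SOX12 (ENSG00000177732, chromosome 20, 325595 to 330224, plus strand), which can act on the same sites as SOX4, did not pass. Its CPM was 116, 155 and 159 in the control group and 159, 151 and 159 in the knockdown group. Only control library 1 was low. The log2 fold change was 0.13 (SE 0.156, edgeR adjusted p = 0.658). NRSN2-AS1, an antisense transcript overlapping SOX12, had a log2 fold change of 0.47 (edgeR adjusted p = 0.340), and reads of the 2 genes cannot be fully separated where they overlap, since no source used here says whether counting used strand.

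SOX11 (ENSG00000176887), the neural SOXC member, was listed at 0 TPM in all 3 control libraries and at 0.0145, 0.0305 and 0.00452 TPM in knockdown libraries 1, 2 and 3. These values are near 0 in both groups, so SOX11 was close to absent from this SOXC set. Within it the ratio of SOX12 to SOX4, in TPM, was 7.64, 11.7 and 10.9 in control libraries and 1.92, 1.81 and 1.80 in knockdown libraries. The balance of the pair moved toward SOX4, while SOX12 remained the higher of the 2 in each library. Since SOX4 was chosen for its rise, this shift restates that choice and supports nothing.

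Among SOXE genes, SOX9 (ENSG00000125398, chromosome 17, 72121020 to 72126420, plus strand) rose 2.87-fold. Its CPM was 48.7, 22.2 and 57.7 in the control group and 127, 121 and 120.4 in the knockdown group. The groups did not overlap, but the controls were spread widely and control library 2 was the lowest. The log2 fold change was 1.52 (SE 0.320, edgeR adjusted p = 0.0309). Leaving out control library 1, or any single knockdown library, ended the call of SOX9 (edgeR adjusted p = 0.0590 to 0.147), while it passed without control library 2 at 2.33-fold (edgeR adjusted p = 0.000237) and without control library 3.

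On the TPM scale SOX9 stood at 10.7, 7.36 and 19.8 in control and 43.2, 42.6 and 40.9 in knockdown libraries. SOX9-AS1, an antisense transcript that overlaps SOX9, held 4 to 35 counts in control and 45 to 94 in knockdown libraries and did not pass (log2 fold change 1.10, edgeR adjusted p = 0.387). The nearest gene on the right, LINC00511, did not pass either (log2 fold change 0.71, edgeR adjusted p = 0.303).

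SOX8 (ENSG00000005513, chromosome 16, 981808 to 986979, plus strand), a close relative of SOX9, rose from a low level. It held 23, 35 and 10 counts in control libraries 1, 2 and 3 and 171, 189 and 280 in knockdown libraries, or 0.846, 1.84 and 0.823 CPM against 4.24, 4.81 and 6.60 CPM. Every knockdown value was above every control value. The fold was 4.43 (log2 fold change 2.15, SE 0.445, edgeR adjusted p = 0.0296). SOX8 passed without control library 2, at 6.23-fold (edgeR adjusted p = 0.00243), and missed the threshold when control library 1 or 3 or any single knockdown library was left out (edgeR adjusted p = 0.0548 to 0.176). On the TPM scale SOX8 did not pass under any of the 3 settings tried (limma adjusted p = 0.0995 to 0.195), with a fold of 2.14 when 1 was added to the TPM.

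The gene head to head with SOX8 rose as well. CEROX1 (ENSG00000260807, AC009041.2 in GENCODE, chromosome 16, 975761 to 981596, minus strand), a long noncoding RNA described as a regulator of mitochondrial complex I, starts 212 bases from the annotated start of SOX8 and is transcribed away from it. It had 2.72, 3.05 and 1.48 CPM in the control and 18.7, 16.5 and 16.9 CPM in the knockdown group, with no overlap. CEROX1 rose 7.08-fold (log2 fold change 2.82, SE 0.299, edgeR adjusted p = 0.00417). It missed the threshold without knockdown library 1 (edgeR adjusted p = 0.0518; 7.14e-18 to 0.107 over all alternatives). Of 31 genes that overlap or flank the members, 9 could be tested, and CEROX1 was the one that passed by edgeR.

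**Figure D2:**
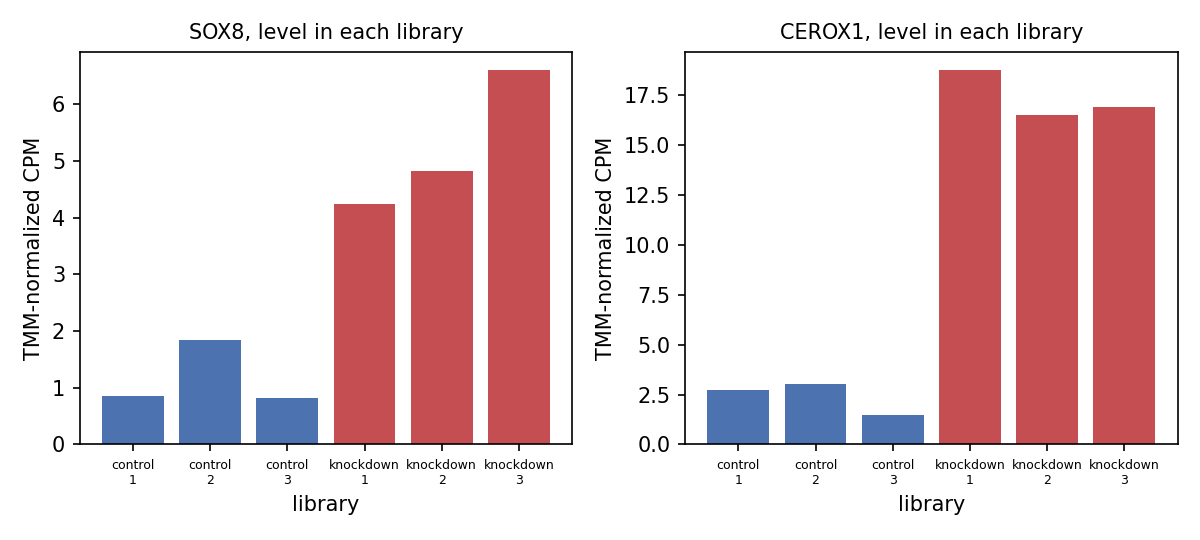
TMM-normalized CPM of SOX8 (left) and of its head-to-head neighbour CEROX1 (right) in each library, control in blue and knockdown in red, with a separate axis from 0 in each panel. Controls lay at 0.823 to 1.84 CPM for SOX8 and 1.48 to 3.05 CPM for CEROX1, below all knockdown values.

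SOXD genes differed in level. SOX13 (ENSG00000143842, chromosome 1, 204073115 to 204127743, plus strand) stood at 15.3, 24.1 and 15.8 CPM in control and 19.6, 18.9 and 20.4 CPM in knockdown libraries. The knockdown values lay within the control range, and the log2 fold change was 0.09 (SE 0.215, edgeR adjusted p = 0.834). SOX6 (ENSG00000110693, chromosome 11) held 10, 1 and 15 counts in control and 15, 12 and 8 in knockdown libraries, with a log2 fold change of -0.87 (SE 1.03, edgeR adjusted p = 0.659), and the estimate was smaller than its error.

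SOX5 (ENSG00000134532, chromosome 12) held 6, 0 and 0 counts in control libraries 1, 2 and 3 and 5, 3 and 6 in knockdown libraries. A count of 0 allows up to 3 counts, or 0.158 CPM in control library 2 and 0.247 CPM in control library 3, counting error only, which is above the SOX5 level of each knockdown library (0.0764 to 0.141 CPM). No difference in SOX5 was detectable at this depth. SOX5 and SOX6, the partners of SOX9 in cartilage, were thus both near the limit of detection.

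SOX2 (ENSG00000181449, chromosome 3) was listed at 0.0390, 0 and 0 TPM in control libraries 1, 2 and 3 and 0.0811, 0 and 0.0384 TPM in knockdown libraries. The long noncoding gene SOX2-OT, which contains SOX2 on the same strand, held 3 to 19 counts per library and did not pass (log2 fold change -1.15, edgeR adjusted p = 0.473). Of the companions of SOX2 in stem cells, 10 of 15 were tested and KLF4 alone passed by edgeR, from 34.8, 29.2 and 38.5 CPM to 170.01, 169 and 169 CPM (4.96-fold, edgeR adjusted p = 0.000981). POU5F1, the partner of SOX2 at pluripotency genes, had a log2 fold change of -1.34 (edgeR adjusted p = 0.0725), SALL4 of -2.07 and DPPA4 of -1.01. These 3 were lower at an unadjusted p under 0.05 and did not pass by edgeR after adjustment. On the whole list DESeq2 called 1 higher and 2 lower, limma-voom 1 and 1, and limma-voom with quality weights 2 and 2. MYC, the most abundant of that list at 293 TPM in the control and 610 TPM in the knockdown group on average, did not pass (log2 fold change 0.86, edgeR adjusted p = 0.153). The list median was -0.31.

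**Figure D3:**
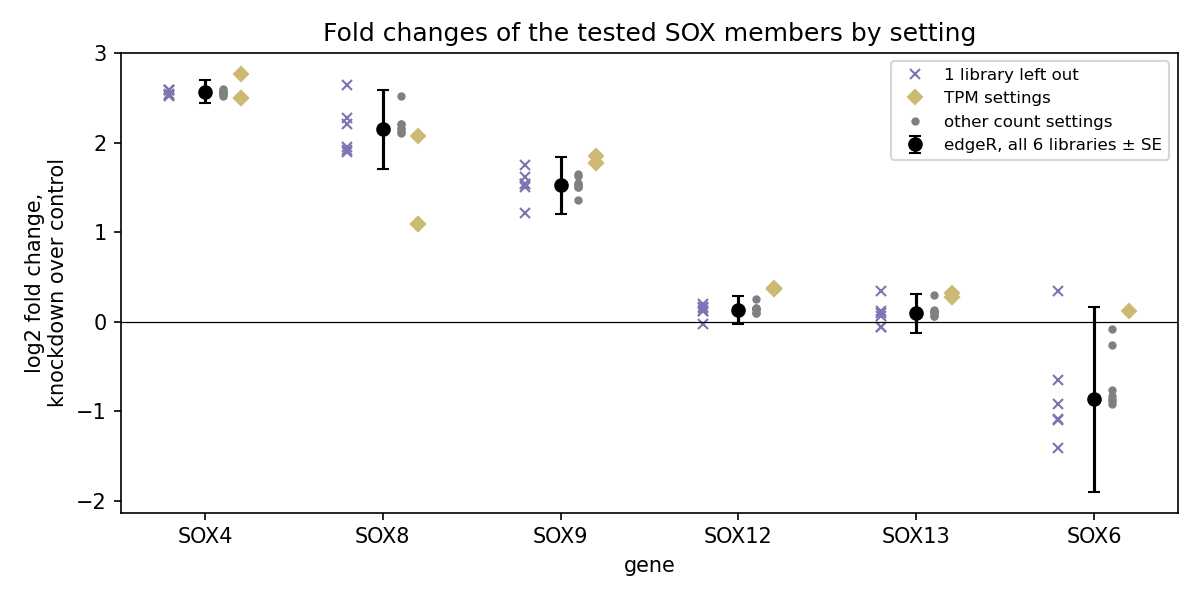
Log2 fold change of knockdown over control for the 6 fitted SOX members, with the edgeR estimate from all 6 libraries ± SE in black, fits with 1 library left out as crosses, TPM settings as diamonds and other count settings as grey points. SOX4 stayed between 2.50 and 2.77, and SOX12, SOX13 and SOX6 each had estimates on both sides of 0.

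The other SOX genes were at most minor. Of 10, 2 were tested, both of the endothelial SOXF group. SOX7 held 52, 26 and 0 counts in control and 171, 130 and 171 in knockdown libraries, with no overlap, yet it did not pass (log2 fold change 1.76, SE 0.902, edgeR adjusted p = 0.269). It passed the filter on low counts only through the knockdown group, and it overlaps PINX1 on the same strand. SOX7 and SOX18 passed neither at an unadjusted p under 0.05 nor by DESeq2 or limma-voom. SOX18 stood at 3.02, 5.94 and 2.06 CPM in control and 2.54 to 2.58 CPM in knockdown libraries and did not pass (log2 fold change -0.53, edgeR adjusted p = 0.509). SOX10, SOX15, SOX30, SOX3, SOX1 and SOX17 were under 1 TPM throughout, and SOX14 and SOX21 were listed at 0 in all 6 libraries.

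As shares of the summed TPM of 19 SOX genes, SOX4 made up 6.61%, 5.25% and 5.38% in control libraries 1, 2 and 3 and 18.6%, 19.6% and 19.9% in knockdown libraries. The share of SOX12 was 50.5% to 61.2% in control and 35.5% to 35.8% in knockdown libraries. For SOX9 it was 25.1%, 10.4% and 25.3% in control and 32.1% to 33.8% in knockdown libraries. Shares within a library do not depend on the scaling between libraries, so the low TPM of control library 1 does not enter them. They show unequal change and not which gene changed. The rise in the share of SOX4 restates its selection, and SOX4 enters the sum behind the other shares.

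**Figure D4:**
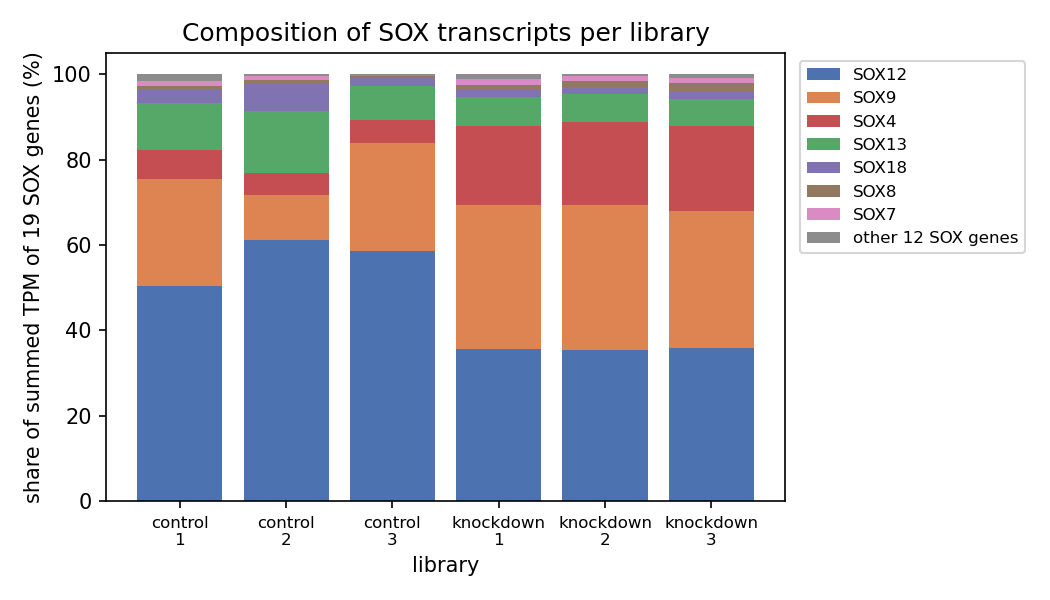
Percent of the summed TPM of 19 SOX genes in each library, stacked by gene. SOX4 (red) took 5.25% to 6.61% of the sum in control and 18.6% to 19.9% in knockdown libraries, and SOX12 (blue) 50.5% to 61.2% and 35.5% to 35.8%. SOX4 was chosen for its rise in this comparison.

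Genes described as targets of SOX4 or SOX11 were read beside SOX4. Of 12 listed, 10 were tested, 0 rose and 2 fell by edgeR, with a median log2 fold change of -0.21. None was higher at an unadjusted p under 0.05, by DESeq2 or by limma-voom, and 1 was with quality weights in limma-voom. EZH2, the histone methyltransferase of the Polycomb complex, fell from 87.3, 80.5 and 81.1 CPM in control to 47.3, 46.1 and 46.5 CPM in knockdown libraries (1.78-fold, edgeR adjusted p = 0.0112). TUBB3, a neuronal tubulin, fell from 110, 95.2 and 128 CPM to 55.98, 56.1 and 56.7 CPM (1.97-fold, edgeR adjusted p = 0.0127). Both missed the threshold when any single knockdown library was left out (edgeR adjusted p up to 0.111). SEMA3C, a secreted semaphorin, had 183, 55.8 and 221 CPM in control and 271 to 295 CPM in knockdown libraries, with no overlap, and did not pass (log2 fold change 0.87, edgeR adjusted p = 0.256). TCF3, an E-protein factor, had one of -0.40 and TEAD2, a Hippo pathway factor, one of 0.01.

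Cartilage genes, the classic targets of SOX9 with SOX5 and SOX6, were mostly near 0. Of 15, 10 were under 1 TPM in all libraries, among them COL2A1 and ACAN, the main cartilage collagen and proteoglycan genes. Of the 7 tested, 1 rose and 0 fell by edgeR, with a median of 1.79. At an unadjusted p under 0.05, and by DESeq2, 4 were higher, 3 were by limma-voom, and 0 were lower by any of these. Of all genes DESeq2 called 18.8% and limma-voom 12.1% in either direction. COL27A1, a fibrillar collagen gene, rose from 45.5, 49.2 and 39.6 CPM to 167, 174 and 173 CPM (3.83-fold, edgeR adjusted p = 0.00124) and still passed whichever of the 6 libraries was left out. COL11A2 and COL9A3, minor cartilage collagens, had log2 fold changes of 2.04 and 1.79 and MATN1, a matrilin, of 3.57, all from 12.6 CPM or less in any library and without passing (edgeR adjusted p = 0.0602 to 0.0975). MATN1 held 1, 3 and 0 counts in control libraries 1, 2 and 3 and 39, 34 and 31 in knockdown libraries. It thus passed the filter on low counts only through the knockdown group. The list median includes it and is given as description only. HAPLN1, which links proteoglycan to hyaluronan, had 28.6, 3.10 and 43.2 CPM in the control group and 13.2 to 16.9 CPM in the knockdown group, which lay within the control range, and did not pass (log2 fold change -0.70).

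Genes of the neural crest and its glia, which SOXE factors act on, had 7 of 13 members tested. NGFR, the low-affinity neurotrophin receptor, was the only one to pass by edgeR, from 10.01, 2.31 and 9.14 CPM to 50.2, 49.6 and 51.1 CPM (7.03-fold, edgeR adjusted p = 0.0169). Of the 7, 6 had a positive and 1 a negative log2 fold change. At an unadjusted p under 0.05 by edgeR 2 were higher and 0 lower. DESeq2 and limma-voom each called 1 higher and 0 lower. NGFR missed the threshold when any single knockdown library was left out (edgeR adjusted p up to 0.102). TFAP2A, an epithelial and neural crest factor and the most abundant of the list, had a log2 fold change of 0.37 (edgeR adjusted p = 0.158). MITF, the melanocyte factor, had one of -0.43. The defining crest and glial genes PAX3, FOXD3 and S100B were listed at 0 in all 6 libraries. The list median was 0.57.

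TGF-beta signalling, an inducer of SOX4, was read through 16 genes, of which 2 rose and 1 fell by edgeR, with a median of 0.47. DESeq2 and limma-voom each called 6 higher and 1 lower, limma-voom with quality weights 8 and 3, and 7 and 1 were at an unadjusted p under 0.05 by edgeR. These tools also called more of all genes, 18.8%, 12.1% and 19.1% in that order, against 8.31% by edgeR. The ligand gene TGFB3 rose from 6.33, 5.15 and 4.03 CPM to 19.6, 19.97 and 19.4 CPM (3.77-fold, edgeR adjusted p = 0.00570). The feedback inhibitor SMAD7 rose from 9.20, 8.31 and 4.61 CPM to 20.5, 16.3 and 17.6 CPM (2.44-fold, edgeR adjusted p = 0.0350). LTBP2, a latent TGF-beta binding protein family gene of the matrix, fell 1.71-fold (edgeR adjusted p = 0.0137). Each of these 3 missed the threshold in the fits without a knockdown library, and SMAD7 also without control library 1 (edgeR adjusted p up to 0.186).

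Cofactors and enzymes that act on SOX proteins did not pass. Of 11 tested, 0 rose and 0 fell by edgeR, with a median of -0.22. CARM1 alone was lower at an unadjusted p under 0.05, 1 was lower by DESeq2, 0 by limma-voom and 3 with quality weights, and none was higher by any of these. The log2 fold changes ran from -0.50 for CARM1, an arginine methyltransferase, to 0.30 for CREBBP, an acetyltransferase. WWP2, a ubiquitin ligase, had a log2 fold change of -0.36, SDCBP, which encodes syntenin and stabilizes SOX4, of -0.31, and KPNB1, the importin that was the most abundant of the list, of -0.26.

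HMG-box proteins outside the SOX family were set beside the members as the nearest wider family. Of 24, 22 were tested, 1 rose and 2 fell by edgeR, with a median of -0.13. DESeq2 called 2 higher and 3 lower, limma-voom 1 and 3, and limma-voom with quality weights 3 and 7, and 4 and 4 were at an unadjusted p under 0.05 by edgeR. Over all genes these tools called 18.8%, 12.1% and 19.1% in that order. TOX2, of the TOX family, rose from 17.6, 15.8 and 35.97 CPM to 55.8, 57.4 and 57.2 CPM (2.47-fold, edgeR adjusted p = 0.0437). The replication gene WDHD1 fell from 52.3, 45.7 and 43.0 CPM to 19.9, 21.98 and 19.6 CPM (2.30-fold, edgeR adjusted p = 0.00658). SSRP1, a subunit of the histone chaperone FACT, fell 1.70-fold (edgeR adjusted p = 0.0236). These 3 missed the threshold without a knockdown library, and TOX2 also without control library 1 (edgeR adjusted p up to 0.170). HMGB1, the most abundant, had a log2 fold change of -0.35 (edgeR adjusted p = 0.142), and the TCF and LEF factors of WNT signalling did not pass.

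**Figure D5:**
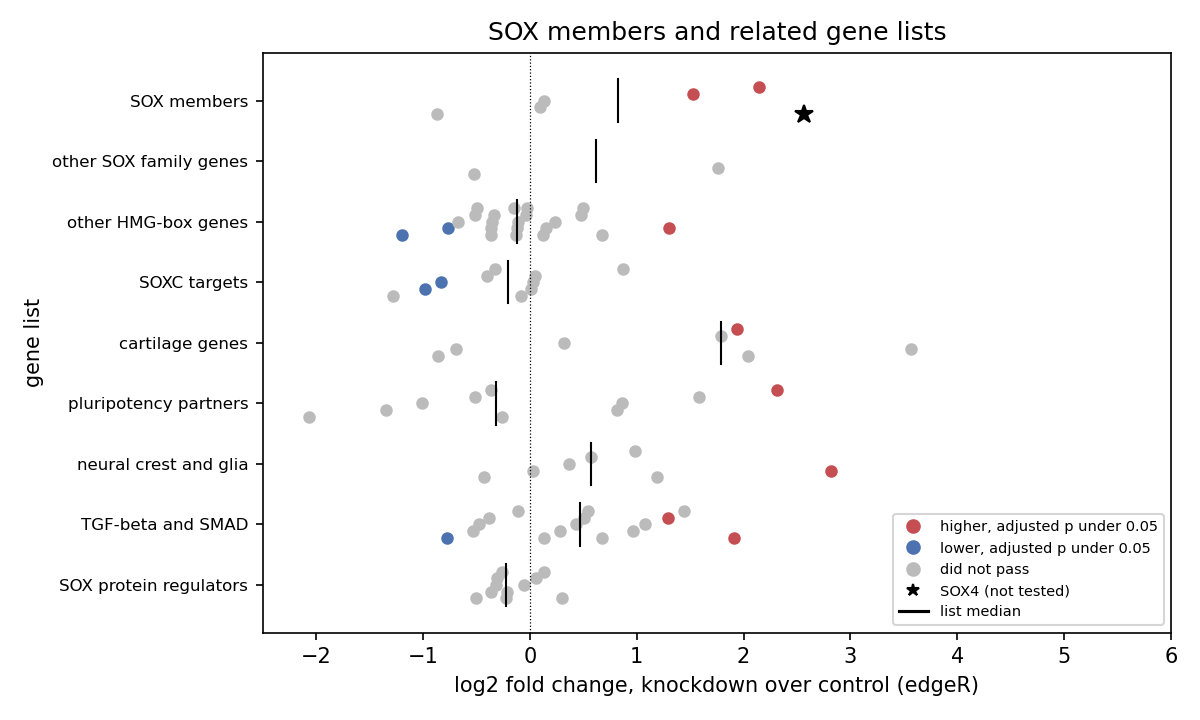
Log2 fold change of knockdown over control for each fitted gene of the SOX family and of related lists, with genes higher at adjusted p under 0.05 in red, lower in blue, others in grey, SOX4 as a star and list medians as bars. The target list of SOXC factors lay around a median of -0.21 and the cartilage list around 1.79. The cartilage median includes MATN1, which passed the filter on low counts only through the knockdown group.

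Markers of cells that a bladder tumour in a mouse can hold were read in the same libraries, since several SOX genes are expressed in such cells. Of 7 smooth muscle markers 4 rose and 0 fell by edgeR (6 and 0 by DESeq2, 4 and 0 by limma-voom), and their summed level was 214 to 435 TPM in the control and 934 to 997 TPM in the knockdown group. Over all genes 8.31% passed by edgeR, 18.8% by DESeq2 and 12.1% by limma-voom in either direction. MYH11, the smooth muscle myosin, rose from 6.95, 2.31 and 0.905 CPM to 56.5, 54.6 and 57.9 CPM (15.8-fold, edgeR adjusted p = 0.0130; 11.6-fold to 32.7-fold with a library left out). ACTA2 rose 3.07-fold, TAGLN 2.54-fold and CNN1 2.63-fold. All 4 missed the threshold when any single knockdown library was left out, and ACTA2 and CNN1 also without control library 3 (edgeR adjusted p up to 0.170). SOX4, SOX8 and SOX9 and the summed smooth muscle markers were thus all higher in the knockdown group. Among the controls the summed markers were lowest in library 2 (214 TPM). There, also in TPM, SOX9 was lowest (7.36 TPM), SOX4 lay between the other controls (3.71 TPM) and SOX8 was highest (0.746 TPM). The TPM scale lowers other genes in control library 1. With 1 added and low genes left out, the median log2 fold change of all genes in TPM was 0.23, which enters the marker sums. The part of smooth muscle in the result was not tested.

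Of 8 fibroblast markers 6 were tested, and 0 rose and 0 fell by edgeR, at an unadjusted p under 0.05, by DESeq2 or by limma-voom; LUM was listed at 0 in all libraries, and the summed level was 8.10 to 45.4 TPM in the control and 56.3 to 73.0 TPM in the knockdown group. Of these, COL1A2 was the most abundant (log2 fold change 1.17, edgeR adjusted p = 0.386). Of 8 endothelial markers 6 were under 1 TPM in all libraries, and their sum was 7.71 to 45.9 TPM in the control and 8.97 to 12.2 TPM in the knockdown group, mostly from TIE1. None passed by edgeR, with 1 higher and 1 lower both at an unadjusted p under 0.05 and by DESeq2. CDH5, the endothelial cadherin, was the higher one (0.405, 0 and 0 CPM in control and 2.46 to 3.13 CPM in knockdown libraries, edgeR adjusted p = 0.0566). It held 11, 0 and 0 counts in control and 99, 123 and 124 in knockdown libraries. CDH5 thus passed the filter on low counts only through the knockdown group and is given as description only. Leukocyte markers summed to 55.7 to 210.4 TPM in the control and 47.1 to 50.5 TPM in the knockdown group, mostly from CD68. CD68 was the 1 marker lower at an unadjusted p under 0.05 and by DESeq2, and 0 passed by edgeR. Of the 8 listed, 5 were under 1 TPM in all libraries. Of the 5 tested, 3 had a positive and 2 a negative log2 fold change, with a median of 0.45. The lower sum is thus that of CD68 and not of the list. Of 14 urothelial markers 12 were tested. UPK1A, a uroplakin, and FOXA1, a luminal factor, rose (edgeR adjusted p = 0.0251 and 0.0281). Both missed the threshold when any single knockdown library was left out (edgeR adjusted p up to 0.174). UPK1A held 15, 3 and 9 counts in control and 136, 134 and 191 in knockdown libraries. Its controls alone did not meet the filter on low counts. PPARG and TP63 went the other way without passing (log2 fold changes -1.12 and -0.85). DESeq2 called 4 higher and 0 lower, limma-voom 2 and 0, and limma-voom with quality weights 3 and 0. The part of these cell types in the SOX levels was not tested.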

How the data were processed

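Bulk RNA-seq of 3 control and 3 GANAB knockdown libraries was used. The tools fastp, Salmon and DESeq2 and the build GRCh38 are named per the submitters' processing notes. No source used here gives their versions or roles, the transcript index or a removal of mouse reads, so host reads that match human transcripts could be counted. The authors deposited estimated counts per gene as whole numbers, so rounding changed 0 values, and a table of TPM. The count table held genes with at least 15 counts in total and counts in at least 3 libraries. Table columns that abbreviate knockout were matched by group and number to the samples labelled knockdown.

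Groups were compared with edgeR 4.0.16 in R 4.3.3 (quasi-likelihood, 2-sided), with filterByExpr, TMM and Benjamini-Hochberg adjustment over 19430 genes at 0.05; 2073 genes were filtered out. Each SE is the log2 fold change over the root of its F statistic. limma 3.58.1 and DESeq2 1.42.0 gave alternatives, and TPM was tested as log2 after adding 1 or 0.1. In simulated counts of this design with 200 changed genes, drawn for the genes tested, 18434 genes were fitted. The test found 5.56% of the 2-fold changes, 69.2% of the 4-fold ones, and wrongly called 3 of 18253 genes left as they were. Each gene was given the same dispersion in both groups, whereas the real groups differed in spread (52.3% in control and 10.7% in knockdown libraries). These rates may therefore not hold for the real comparison. Libraries of a group differed by more than sampling noise (chi-square per degree of freedom at least 5.87).

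Members and gene lists were chosen with earlier results of these data known. The text names GANAB, all SOX genes, up to 3 genes of smallest p and the most abundant of each list, the 5 genes nearest to SOX4, and genes overlapping or flanking members; other genes named were chosen after their values were seen. A gene that this rule names is not reported here. Places are from GENCODE release 29 (GRCh38), upstream windows from RefSeq (GRCh38.p14).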

Additional observations from a re-analysis of the deposited data

How the results depend on the processing

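The log2 fold change of SOX4 was 2.52 to 2.59 with a library left out and 2.77 with 0.1 added to the TPM. Of 5 other tested members, 2 passed; 1 did with at least 5 CPM in 3 libraries, where SOX8 was filtered out, 1 (SOX9, not SOX8) with TPM plus 1 or plus 0.1 and a mean of at least 1 TPM, 0 with unfiltered TPM, and 0 to 2 with a library left out. Over all genes 1614 passed; DESeq2 gave 3655, limma-voom with quality weights 3716, the TPM settings 828, 526 and 68, and fits without a library 62 to 5604 (62, 115 and 88 without knockdown library 1, 2 and 3, and 5604 without control library 2). The cause was not tested. On the TPM scale with 1 added and low genes left out, 90.7% of calls were higher against 55.3% in counts, and the median of all genes was 0.23 (0.28 with 0.1 added). With a library left out, SOX12 ran from -0.028 (without control library 1) to 0.20, SOX13 from -0.062 (without control library 1, and -0.056 without control library 3) to 0.34, and SOX6 from -1.41 to 0.34 (without control library 3); SOX6 was 0.12 with unfiltered TPM. Same-numbered libraries deviated from their group means with correlations of 0.000320 to 0.0195. With 3 libraries per group, and knockdown libraries that differed little, this cannot show whether the numbers paired them. With the replicate number as a block 566 genes passed and 1 of the members besides SOX4, SOX9, while SOX8 did not (edgeR adjusted p = 0.0745). Depth limits SOX5, SOX6, SOX7 and SOX8, which had as few as 0 to 10 counts in a control library.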
